A study of Rattus norvegicus with 18 samples.

Results

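The 1 h response to a single aversive lesson was compared between 2 brain regions of the rat, and the comparison asked which genes changed by a different factor in each. It rests on 12 of the 18 libraries of the series, chosen by their labels. These are 3 pools of dorsal hippocampus (dHC) from naive rats, 3 of dHC taken 1 h after inhibitory avoidance training, and the same 2 conditions in prelimbic cortex (PL). The other 6 libraries, taken 6 d after training, entered the fit for its estimate of the spread and gave a second reading of regional levels. All rats were adult Long-Evans animals, an outbred strain, and each pool combined the RNA of 5 rats. No genetic manipulation or drug is named for any group. Naive rats stayed in the home cage, so that learning, the foot shock, handling and the new place cannot be told apart in a change at 1 h. The tissue was punched from frozen brain, so each library averages neurons, glia and vessel cells, and fewer cells of a type and less RNA per cell cannot be told apart.

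Inhibitory avoidance is learned in one trial: the animal receives a foot shock in one compartment and later stays out of it. The dorsal hippocampus is known for encoding the place and context of such an event, and the prelimbic cortex, a medial prefrontal area, for the control of learned fear and avoidance and for the later storage of such memories. Neuronal firing is known to switch on a fast wave of transcription in such areas, first of transcription factors such as Fos and the Egr family, then of synaptic and secreted proteins, with a peak of the earliest messages within about an hour. The resting amount of such a message sets how large any given addition looks as a ratio, and for this reason the changes are given below both as ratios and as added amounts.

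The 12 libraries held 7687831 to 9215695 reads assigned to genes. Levels are in CPM, the count of a gene scaled to a fixed total of gene reads and adjusted by edgeR's TMM factors, which lay between 0.970 and 1.01. A limit of 3 counts was worth 0.330 to 0.390 CPM in these libraries, for counting error only. The count tables identify genes by Ensembl ID without a name, and 0 of 32662 IDs matched a name in the reference table used here. Genes are therefore reported as IDs, 2 for each direction, and the others are described by their values. For the same reason neither the regions nor the cell make-up of the punches were checked against marker genes.

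The change at 1 h differed between dHC and PL for 14 of 14784 genes tested (0.0947% of them; edgeR quasi-likelihood F test of the interaction, adjusted p under 0.05, "called" below). The 14 genes fell into opposite patterns. One group of 9 genes (0.0609%) had the more positive change in PL, and all of these rose in PL. The other, of 5 genes (0.0338%), had it in dHC, and all of these rose in dHC while none was called in PL. No gene of the 14 was called lower in either region. The 5 genes with the larger rise in dHC all had PL values below 0, which their choice by the interaction favours. In 3 of them every PL pool at 1 h lay below every naive PL pool, where 10.9% of all genes tested did. At an unadjusted p under 0.05 there were 7.08% of the genes tested.

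The interaction is read beside its 2 parts from the same fit, which use the same libraries. In PL, 172 genes were called at 1 h (1.16% of those tested), 100 of them higher (0.676%) and 72 lower (0.487%). The balance in PL turned without naive PL pool 3, where 81 of 220 called genes were higher, and also with the 12 libraries alone (221 and 293) and with no filter on low counts (250 and 326). In dHC, 50 were called (0.338%), 48 of them higher (0.325%) and 2 lower (0.0135%). Single libraries moved these counts. In PL there were 66 to 69 calls without naive pool 2 or 1, 78 to 89 without 1 h pool 1, 2 or 3 and 291 without PL 6 d pool 1. In dHC there were 19 and 24 calls without 1 h pools 3 and 1, 22, 32 and 89 without naive pools 1, 2 and 3, and 76 without PL 6 d pool 1. Among the 85 genes called higher in PL but not in dHC, 6 passed the test of the difference. Among the 33 called higher in dHC but not in PL, 5 passed it. For 38 of the 100 genes higher in PL, and for 13 of the 48 higher in dHC, the 95% interval of the regional difference held 0. A call in one region alone was thus seldom a shown difference between them. Neither did it show that the regions were alike: for 78 of the 100 and 34 of the 48 the interval reached past a log2 difference of 0.5. Of all genes tested, 52.4% had an interval within 0.5 on either side of 0. An unadjusted edgeR p under 0.05, which goes with an interval that leaves out 0, was found for 7.08% of all genes. Intervals without 0 were thus more frequent among the 100 and the 48 than among all genes. The change that chose the 100 and the 48 is part of the interaction, so their intervals tend to lie away from 0. None of the 72 genes lower in PL and none of the 2 lower in dHC passed the test of the difference. The interval held 0 for 25 of the 72 and reached past 0.5 for 54 of them.

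**Figure D1:**
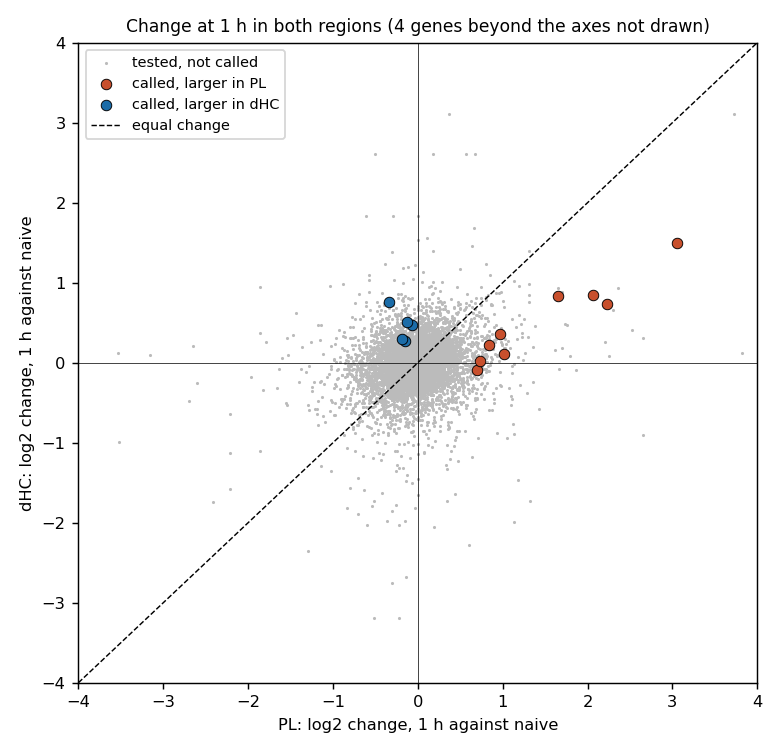
Log2 change at 1 h against naive in PL (horizontal) and dHC (vertical) for each gene tested, with the 14 called genes enlarged and a dashed line of equal change. The 9 genes with the larger rise in PL lie below the line, with PL changes of 0.69 to 3.05, and the 5 with the larger rise in dHC lie above it, with PL values of −0.34 to −0.07.

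Among the 14 called genes, the largest difference was found for ENSRNOG00000008015. In naive dHC its pools stood at 3.13, 2.21 and 2.94 CPM, and at 1 h at 7.53, 7.35 and 8.69 CPM. In naive PL they stood at 7.73, 4.12 and 8.89 CPM, and at 1 h at 57.4, 51.8 and 61.9 CPM. In both regions every 1 h pool lay above every naive pool, and the lowest PL pool at 1 h was several times the highest dHC pool. The rise was 2.82-fold in dHC (log2 1.49, SE 0.24, edgeR adjusted p = 0.00137) and 8.29-fold in PL (log2 3.05, SE 0.15, edgeR adjusted p = 1.96e-13). The log2 difference of −1.56 (SE 0.31, 95% interval −2.20 to −0.92, edgeR adjusted p = 0.0327) was called, but it was lost with any 1 of 8 libraries left out. These were naive dHC pools 1 and 3, dHC 1 h pools 1 and 2, naive PL pools 1 and 2 and PL 1 h pools 1 and 3. Its adjusted p over 27 alternatives ran from 3.00e-06 to 0.321. Naive dHC held only 17 to 28 reads of this gene per library, which limits the precision of the ratio there. It was already lower in dHC at rest, with a regional difference (dHC minus PL) of −1.30 on the log2 scale (SE 0.24), and at 1 h that difference was −2.86 (SE 0.15).

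ENSRNOG00000046667 had the same shape with a firmer call. Its naive dHC pools stood at 4.58, 4.42 and 6.79 CPM and its 1 h dHC pools at 8.77, 8.02 and 9.68 CPM. Its naive PL pools stood at 9.75, 8.68 and 10.8 CPM and its 1 h PL pools at 44.1, 41.6 and 51.2 CPM. The groups did not overlap in either region, yet the dHC change of 0.74 on the log2 scale (SE 0.18) did not pass (edgeR adjusted p = 0.0752), while the PL change of 2.23 (SE 0.13) did (edgeR adjusted p = 3.29e-12). At 1 h the dHC pools had only come to the level at which naive PL pools stood. The difference of −1.49 (SE 0.23, edgeR adjusted p = 0.00343) was called in each of 27 alternatives, with adjusted p between 1.77e-08 and 0.0287. In the 6 d pools it was at 6.10, 4.24 and 3.74 CPM in dHC and at 8.09, 6.79 and 8.04 CPM in PL, near the naive values of each region.

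Among the called genes with the larger rise in dHC, ENSRNOG00000046858 differed most. Its naive dHC pools stood at 17.6, 18.3 and 12.8 CPM and its 1 h dHC pools at 27.7, 29.0 and 25.4 CPM. Its naive PL pools stood at 20.3, 17.9 and 24.0 CPM and its 1 h PL pools at 14.6, 17.0 and 17.4 CPM. All dHC pools at 1 h were above all others, and all PL pools at 1 h were below the naive PL pools. The rise in dHC was 1.69-fold (log2 0.75, SE 0.13, edgeR adjusted p = 0.00198), and the PL value of −0.34 on the log2 scale (SE 0.13) did not pass (edgeR adjusted p = 0.220). The difference of 1.09 (SE 0.18, 95% interval 0.72 to 1.46, edgeR adjusted p = 0.00689) was called in each of 27 alternatives, with adjusted p between 1.74e-07 and 0.0359. By the estimates the order of the regions turned. The log2 level in dHC minus that in PL was −0.35 at rest (SE 0.13, edgeR adjusted p = 0.0286) and 0.74 at 1 h (SE 0.13, edgeR adjusted p = 1.59e-05). The naive pools are part of the interaction, and those of the 2 regions overlapped. The 6 d pools, at 20.8, 20.4 and 18.8 CPM in dHC and at 19.1, 24.3 and 19.9 CPM in PL, overlapped too. Their difference was −0.07 (SE 0.13, edgeR adjusted p = 0.681).

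For ENSRNOG00000017328 the regions were closer together at 1 h than at rest. Its naive dHC pools stood at 30.9, 30.8 and 33.6 CPM and its 1 h dHC pools at 46.1, 44.2 and 45.4 CPM. Its naive PL pools stood at 60.8, 57.2 and 54.6 CPM and its 1 h PL pools at 49.9, 49.0 and 58.6 CPM. The dHC groups did not overlap, the PL groups did, and PL stayed above dHC in every pool. The dHC rise was 0.51 on the log2 scale (SE 0.08, edgeR adjusted p = 0.00162) against −0.13 in PL (SE 0.08, edgeR adjusted p = 0.442), a difference of 0.64 (SE 0.11, edgeR adjusted p = 0.0123). The regional difference of its level went from −0.86 at rest (SE 0.08) to −0.21 at 1 h (SE 0.08). In the 6 d pools it was −0.97 (SE 0.08), and the dHC pools had come back to 28.3, 29.8 and 32.4 CPM. The call of the difference was lost without pool 1 of any of the 4 groups, with an adjusted p of up to 0.0699 in a range from 0.000366 over 27 alternatives.

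**Figure D2:**
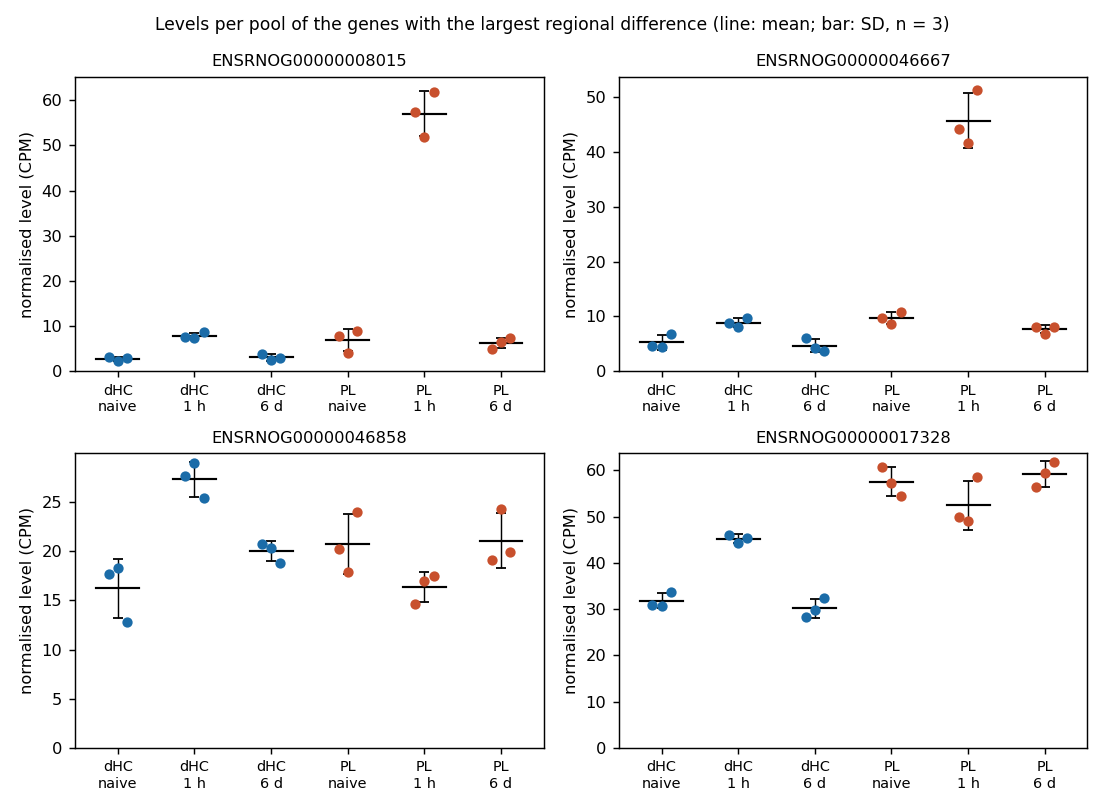
Level in CPM (vertical axis, from 0) of 4 genes in each pool of the 6 groups, with the mean (line) and SD (bar, n = 3). ENSRNOG00000008015 and ENSRNOG00000046667 reached means of 57.0 and 45.6 CPM in PL at 1 h, against 7.86 and 8.82 CPM in dHC, while ENSRNOG00000046858 and ENSRNOG00000017328 rose in dHC.

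The other 7 genes with the larger rise in PL had the same order of regions at 1 h. Over all 9, the PL change ran from 0.69 to 3.05 on the log2 scale with a median of 1.01, and the dHC change from −0.09 to 1.49 with a median of 0.35. In PL, 9 of the 9 had every 1 h pool above every naive pool, where 9.57% of all genes tested did. In dHC, 7 of the 9 did, where 9.16% of all genes did, although only 3 were called there. The dHC pools of most of these genes thus also stood higher at 1 h, by smaller factors. These counts are descriptions, since the same libraries chose the genes.

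Of these 9 genes, 3 were higher in dHC at rest, among them the gene with the smallest adjusted p of all 14. That gene stood at 72.2, 75.1 and 86.5 CPM in naive dHC and at 143.8, 116.1 and 159.3 CPM there at 1 h. In PL it stood at 45.3, 43.3 and 52.4 CPM in naive pools and at 190.2, 185.9 and 213.8 CPM at 1 h. It rose in both regions, and the PL pools came from below the dHC pools to above them. Its difference of −1.23 (SE 0.15, edgeR adjusted p = 0.000114) was called in each of 27 alternatives. Another of the 3 was called higher in PL (log2 0.69, SE 0.10) and not in dHC (−0.09, SE 0.09). Its dHC pools stood at 55.9, 67.7 and 53.4 CPM at rest and at 51.0, 58.5 and 56.7 CPM at 1 h, and its PL pools at 39.3, 34.2 and 38.5 CPM at rest and at 58.7, 58.5 and 63.6 CPM at 1 h. The dHC groups overlapped, and the regional difference of −0.12 at 1 h (SE 0.09) was not called. This difference of the changes, −0.78 (SE 0.13, edgeR adjusted p = 0.0103), was lost without dHC 1 h pool 1 (edgeR adjusted p = 0.0517, the highest of the 27 alternatives, the lowest being 1.74e-07).

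Further shapes occurred among the 6 genes that were not higher in dHC at rest. One gene rose in both regions, from 33.8, 26.8 and 26.6 CPM to 58.7, 45.0 and 52.5 CPM in dHC and from 39.8, 40.7 and 43.4 CPM to 136.9, 118.6 and 132.4 CPM in PL. Its log2 rise was 0.84 in dHC (SE 0.10) and 1.65 in PL (SE 0.09), both called, and the difference of −0.81 (SE 0.14) had an edgeR adjusted p of 0.00689. That call was lost without naive dHC pool 1 (edgeR adjusted p = 0.0610, in a range over 27 alternatives from 7.80e-08). Another gene rose in PL, from 41.0, 36.8 and 38.2 CPM to 67.4, 76.5 and 90.6 CPM, with a log2 rise of 1.01 (SE 0.09). In dHC its pools stood at 32.0, 30.4 and 27.9 CPM at rest and at 32.1, 32.3 and 33.3 CPM at 1 h. These dHC groups did not overlap, but only just, and the log2 value of 0.12 (SE 0.10) was not called (edgeR adjusted p = 0.742). This difference of −0.90 (SE 0.13, edgeR adjusted p = 0.00194) was called in each of 27 alternatives.

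The 5 genes with the larger rise in dHC moved less. Their dHC change ran from 0.27 to 0.75 on the log2 scale with a median of 0.47, and their PL values from −0.34 to −0.07, all below 0 and none called. In dHC every 1 h pool lay above every naive pool for 5 of 5, where 9.16% of all genes did. In PL every 1 h pool lay below every naive pool for 3 of the 5, where 10.9% of all genes did. These counts too are descriptions: the same libraries chose the genes, and the choice favours a rise in dHC and lower values in PL. In level the 5 genes differed widely. Of these, 3 stood at a percentile of resting level of at least 88.2 in both regions. ENSRNOG00000046858 stood at 42.5 in dHC and 48.2 in PL, and ENSRNOG00000017328 at 57.9 and 72.4. The median of the 5 in naive dHC was 203 CPM, against 31.2 CPM for the 9 genes with the larger rise in PL and 22.7 CPM for all genes tested. Their smaller differences, of 0.42 to 1.09, were measured with a median SE of 0.10, where the median over all genes was 0.16. The most abundant but one in naive dHC is an example. Its pools went from 240, 249 and 257 CPM to 345, 333 and 357 CPM in dHC, and stood at 306, 273 and 277 CPM at rest and at 252, 266 and 298 CPM at 1 h in PL. Its PL groups overlapped, its dHC groups did not, and PL had the higher mean at rest and dHC at 1 h. The difference of 0.54 (SE 0.10, edgeR adjusted p = 0.0176) was lost with any 1 of 6 libraries left out, with adjusted p of up to 0.105 in a range from 3.16e-06.

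How the 14 genes stood before training was read from the naive pools and, as a second reading, from the 6 d pools. The naive pools are part of the interaction itself, so a chance deviation there moves the resting difference and the interaction in opposite directions. The 6 d pools are not part of it, though those rats had been trained. Same-numbered naive and 6 d libraries had deviations from their group means correlated at 0.12, 0.35 and 0.29 in dHC. In PL the values were 0.39, −0.03 and 0.05. The 6 d reading is therefore not wholly separate from the naive pools. In the naive pools, 13 of the 14 genes differed in level between regions (46.3% of all genes tested did), and in the 6 d pools 11 of 14 did (45.8% of all). The 14 had a median of 36.1 CPM in naive dHC, against 22.7 CPM for all genes. Their median SE of the interaction was 0.13, against 0.16. How far level and precision raised these shares was not tested. Of all genes tested, 23% were called higher in dHC at 6 d and 22.8% higher in PL. Of the 9 genes with the larger rise in PL, 5 were higher in PL at 6 d, 3 were higher in dHC and 1 was not called. Of the 5 genes with the larger rise in dHC, 2 were higher in dHC at 6 d, 1 was higher in PL and 2 were not called. The larger rise was thus found in the region with more of the transcript for 7 genes and in the region with less for 4.

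The regional differences of these genes did not all move one way. By the sign of the estimates, called or not, from rest to 1 h the difference of level widened for 8 genes, turned for 5 and narrowed for 1. Measured from the 6 d pools, it widened for 7, turned for 6 and narrowed for 1. The 1 h difference is the resting difference plus the interaction, so the choice of genes shaped these counts. The same counts over all genes were not made. At 1 h all 9 genes with the larger rise in PL had the higher mean there, and 7 of these differences were called, where 24% of all genes were called higher in PL, 23.9% higher in dHC and 47.9% in all. The 2 not called were among the 3 genes that had been higher in dHC at rest, and their regional differences at 1 h were −0.12 and −0.04. Of the 5 genes with the larger rise in dHC, 4 were higher in dHC at 1 h and ENSRNOG00000017328 was still higher in PL. The 1 h pools are part of the interaction that chose these genes, so these orders at 1 h were in part fixed in advance.

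**Figure D3:**
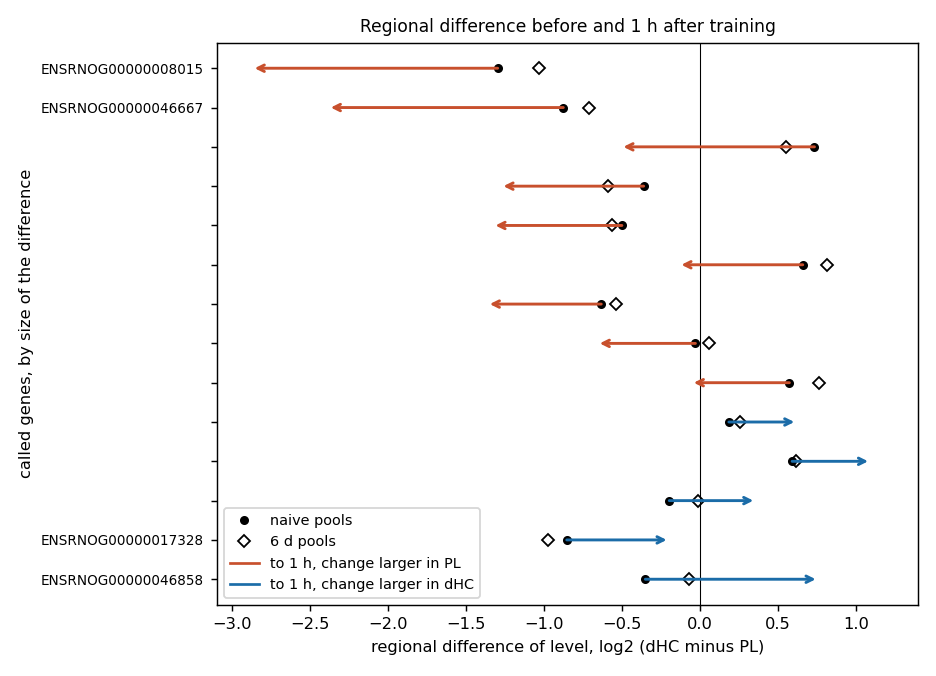
Regional difference of level (log2, dHC minus PL) of the 14 called genes, one per line, in naive pools (dots), in 6 d pools (diamonds) and at 1 h (arrow heads). Arrows point towards PL for 9 genes and towards dHC for 5, and 5 of them cross 0.

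The changes were also expressed as added amounts. All 9 genes with the larger ratio in PL also gained more CPM there, and all 5 with the larger ratio in dHC gained more CPM in dHC. For most of these genes that order follows from the ratios and the starting levels. ENSRNOG00000008015 gained 5.10 CPM in dHC (SE 0.50) and 50.1 CPM in PL (SE 3.26). ENSRNOG00000046667 gained 3.56 CPM in dHC (SE 0.90) and 35.9 CPM in PL (SE 2.93). ENSRNOG00000017328 gained 13.5 CPM in dHC (SE 1.07), against −5.02 CPM in PL (SE 3.56). The added amounts are descriptions of these pools and were not tested across genes.

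Resting levels were then related to the interaction over all genes, by dividing them according to the regional difference in the 6 d pools. Some same-numbered naive and 6 d libraries shared deviations, so these bins are not wholly separate from the interaction. How far this moved the medians below was not tested. Genes more than 2-fold higher in PL than in dHC there numbered 895, and their interaction had a median of 0.09 on the log2 scale, towards dHC, where all genes had a median of 0.01. An unadjusted p under 0.05 towards dHC was found for 8.38% of the 895 and towards PL for 2.46%, where all genes tested gave 4.31% and 2.77%. The shift lay in PL: the median change at 1 h of these genes was −0.10 in PL and −0.01 in dHC. Per pool, their median level relative to naive PL was −0.08, −0.08 and −0.08 on the log2 scale in the 3 PL pools at 1 h. The naive PL pools, each set against the other naive pools, lay at 0.05, −0.02 and −0.005. The PL groups did not overlap, and the dHC groups did. The next bin, of 1118 genes higher in PL by a log2 value of 0.5 to 1, had PL pools at 1 h at −0.05, −0.04 and −0.04 and naive PL pools at 0.04, −0.02 and −0.01, again without overlap, and a median interaction of 0.04. Restricted to the 469 of the 895 genes above 10 CPM, the median was 0.10, with 14.9% towards dHC and 2.56% towards PL. Above 10 CPM the share towards dHC was the larger in every bin. It was 8.9% against 3.2% for genes higher in PL by 0.5 to 1, and 4.05% against 2.47% within 0.5. It was 7.11% against 3.55% for genes higher in dHC by 0.5 to 1, and 8.41% against 6.31% for those over 2-fold higher in dHC. Of the 895, 1 was called (0.112%, where 0.0947% of all genes tested were), ENSRNOG00000008015, whose own difference had the opposite sign. The share of these genes' transcripts that comes from each cell type was not tested.

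The 1002 genes more than 2-fold higher in dHC at 6 d had a median interaction of −0.01. At an unadjusted p under 0.05, 5.69% of them were towards dHC and 4.49% towards PL. Of the 1002, 0 were called, where 0.0947% of all genes tested were. Without PL 1 h pool 2 this median was 0.0002, and over all alternatives it ran from −0.06 to that value. The corresponding median of the 895 genes higher in PL stayed above 0, between 0.07 and 0.11. The median level of a bin varied between pools of a group with an SD of 0.04 on the log2 scale for the 895 genes and 0.06 for the 1002 (pooled over the 6 groups of 3). The difference between these bins was not tested, and a shift of like size among the genes higher in dHC is not excluded. Among the 10314 genes within a log2 difference of 0.5 the median was 0.00, with 3.53% and 2.49%. Across all 14784 genes, which are not independent, the interaction and the 6 d regional difference had a Pearson r of −0.04 and a Spearman rho of −0.03.

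**Figure D4:**
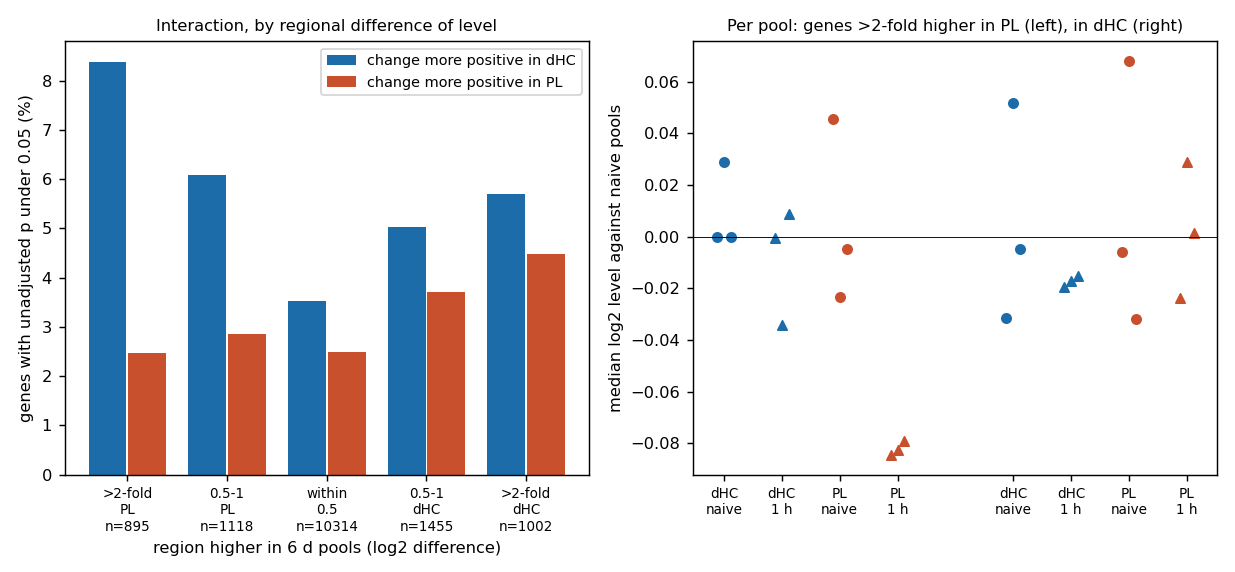
Left, percentage of genes with an unadjusted interaction p under 0.05 in either direction, for 5 bins of the regional difference in the 6 d pools. Right, median log2 level per pool against naive pools of the same region (a naive pool against the other naive pools) for the 895 genes over 2-fold higher in PL and the 1002 over 2-fold higher in dHC; the PL pools at 1 h lie at −0.08 for the former and on both sides of 0 for the latter.

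The number of calls depended on single libraries. It was 6 without dHC 1 h pool 1, 7 without naive dHC pool 1, naive PL pool 1 or PL 1 h pool 1, 9 without naive PL pool 2 and 27 without naive PL pool 3. The sign of the difference was kept for all 14 genes in each of 27 alternatives. The alternatives refit the same counts for genes chosen for differences far from 0, so a kept sign was likely from the start. Called in each of the 18 fits with a library left out were 4 genes, 3 of them with the larger rise in PL, ENSRNOG00000046667 among them, and ENSRNOG00000046858. The 95% interval of the regional difference lay within a log2 value of 0.5 on either side of 0 for 52.4% of all genes tested and within 1 for 80.7%. For the other genes a difference of these sizes was not excluded by the pools.

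**Figure D5:**
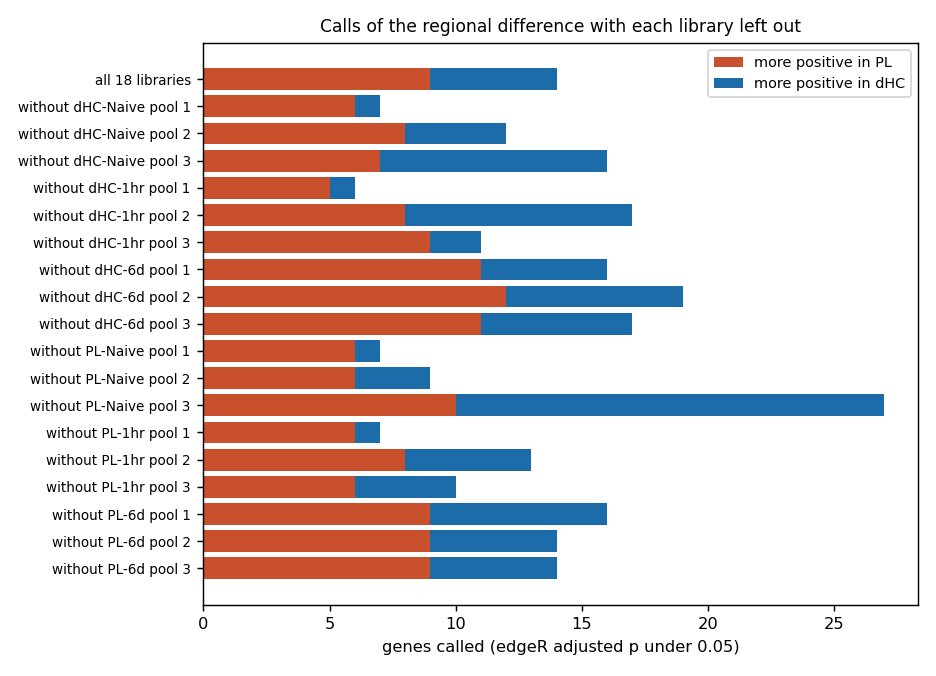
Number of genes called for the regional difference of the 1 h change with all 18 libraries (14) and with each library left out, divided by direction. The count runs from 6 without dHC 1 h pool 1 to 27 without naive PL pool 3.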

How the data were processed

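RNA sequencing measured transcripts in 18 libraries, and the 12 described here are those of naive rats and of rats 1 h after training, 3 pools a group. The authors deposited whole-number read counts per Ensembl gene (32662 rows), not normalized. The submitters' processing notes name Rnor_6.0, Picard 1.126, bedtools 2.17.0 and DESeq2 without their roles. Which aligner and counter were used, and with which strand setting, is not given in the sources used here. Counts of overlapping, antisense and duplicated genes are for this reason uncertain. Per the labels' protocols the library kit was stranded and selected polyadenylated RNA.

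The 5 rows of reads given to no gene were left out (44.3% to 51.8% of reads not aligned, 10.1% to 12.6% outside gene models, 5.56% to 7.18% aligned more than once, 0.617% to 0.706% ambiguous in the 12 libraries). Counts were fitted in R 4.3.3 with edgeR 4.0.16 (TMM factors, filterByExpr by group, glmQLFit, glmQLFTest, two-sided, Benjamini-Hochberg over 14784 genes) with 1 mean for each of 6 groups over 18 libraries. Standard errors come from the F statistic. SDs are over 3 pools, described by the series as independent. The sample titles do not say whether dHC and PL pools of a condition came from the same rats. The main fit has no term for such a pairing. Within groups no pool was a copy of another: the chi-square of the counts of 2 pools, divided by its degrees of freedom, lay between 1.67 and 4.98 over 18 pairs. P-values measure the spread between these pools. Alternatives used DESeq2 1.42.0, limma 3.58.1, other filters, normalizations, terms and left-out libraries. The comparison and its rules were chosen with earlier results of these data known. The rule for named genes gave every called gene, but without names it was limited to the 2 IDs per direction with the largest difference. The 23 gene lists and the promoter motifs were not used, since 0 IDs matched a name.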

Additional observations from a re-analysis of the deposited data

Results flagged for a closer look

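A difference between the regions in the same contrast, by the test of the difference itself, singled out 14 genes at 1 h. Among those given by ID these were ENSRNOG00000008015 with a log2 difference of −1.56 (dHC minus PL), ENSRNOG00000046667 with −1.49, ENSRNOG00000046858 with 1.09 and ENSRNOG00000017328 with 0.64. Their edgeR adjusted p-values were 0.0327, 0.00343, 0.00689 and 0.0123. With 3 pools a group, single pools that stand apart were not looked for by a rule.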

How the results depend on the processing

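The 14 calls of the regional difference became 22 with DESeq2 (9 more positive in dHC, 13 in PL), 22 with the share of reads outside gene models as a covariate (10 and 12), 30 with the 12 libraries alone (14 and 16) and 117 with all genes kept (75 and 42). With a library left out they ran from 6 to 27. More were more positive in dHC without a filter, without naive dHC pool 3 (9 and 7), without dHC 1 h pool 2 (9 and 8) and without naive PL pool 3 (17 and 10). The 14 genes were all called with DESeq2, limma voom, other size factors, either other filter, the covariate and 12 libraries. Genes called at 1 h in dHC (50) became 82 with DESeq2, 131 with 12 libraries and 231 without a filter, and 19 to 89 with a library left out. Those in PL (172) became 514 with 12 libraries (221 higher, 293 lower) and 576 without a filter (250 higher, 326 lower), and 66 to 291 with a library left out. The counts of genes differing in level between regions stayed within 1.5 times of their values in each alternative run. These and the medians by level were put through the alternatives after the data were seen. Without a filter, genes with few reads enter the fit. The cause of the shifts in these counts, also of those without a filter, was not tested.

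The replicate numbers are shared by all groups, but the labels do not say what a number marks. Same-numbered dHC and PL libraries of a condition had deviations correlated between −0.30 and 0.10, with 1 of 9 pairs over 0.1. Over all pairs of groups they lay between −0.30 and 0.39, with 12 of 45 over 0.1, among them all 3 of naive dHC with dHC at 6 d (0.12, 0.35 and 0.29), and 8 of 18 libraries correlated best with their own number. With the replicate number as a block 16 genes were called, the 14 among them. With a replicate block within each condition 12 were called (3 more positive in dHC, 9 in PL), of which 11 were among the 14. The fit within condition gives no value for a single region. Counts of the fixed lists were not run.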

Other observations

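The 5 genes next in line for the regional difference, outside the 14, had edgeR adjusted p-values of 0.0573 to 0.0787. Of these, 4 had log2 differences of 0.45 to 0.75, towards dHC, and 1 had −0.81, towards PL. At an unadjusted p under 0.05 there were 1047 genes (7.08% of those tested), 637 of them more positive in dHC and 410 in PL, the opposite balance to that of the 14 calls.

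Genes called at 1 h in PL, or called higher in dHC, were more frequent among genes whose level differs between regions, as read from the 6 d pools. The comparison is with the genes within a log2 difference of 0.5. Of the 1002 genes over 2-fold higher in dHC, 1.90% were called lower in PL, and of the 895 over 2-fold higher in PL, 1.34% were, against 0.262% of the 10314 genes within a log2 difference of 0.5 and 0.487% of all genes. Of the 1118 genes higher in PL by a log2 value of 0.5 to 1, 0.358% were called lower in PL. Of the 1455 genes higher in dHC by 0.5 to 1, 1.31% were called higher in PL, the highest share of the 5 bins. Genes over 2-fold higher in PL and in dHC gave 0.782% and 0.798%, genes within 0.5 gave 0.533% and all genes 0.676%. Genes called higher in dHC made up 0.687% of the same 1455, again the highest share. They made up 0.447% and 0.499% of the 2 outer bins, 0.213% of the genes within 0.5 and 0.325% of all genes. These shares are descriptions, since the bins differ in level and precision. The median SE of the interaction was 0.31 and 0.29 in the outer bins and 0.14 in the middle one.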
